A study of Homo sapiens with 6 samples.

Results

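The 9 genes described here are cancer-testis antigens: the MAGE family members MAGEA1, MAGEA3, MAGEA4, MAGEA6, MAGEA12, MAGEB2 and MAGEC2, the serine protease gene PRSS21, and PRAME. They were taken by gene symbol from a table of 23524 genes measured by RNA-Seq in the human liver tumor line Hep G2. The study asked what stable overexpression of EFTUD2, a GTPase of the U5 particle of the spliceosome, changed in these cells. Hep G2 cells were given a lentivirus with an empty vector (control, n = 3 libraries) or with the EFTUD2 gene (EFTUD2, n = 3 libraries) and were selected in puromycin; the sources used here do not say whether the selected cells were pools or clones, nor whether the numbered libraries came from separate cultures, so the spread between libraries may be technical. The set was chosen because MAGEB2 and PRSS21 stood out in this same comparison, so the values of the 9 genes are a description, and no p is given for any of them.

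Cancer-testis antigens are proteins that are normally made by germ cells in the testis and are silent in most adult somatic tissues, but whose genes are switched on again in many tumors. Because germ cells present few peptides to T cells, an antigen of this kind on a tumor cell can be seen as foreign, and MAGEA1 was found in that way in melanoma. Many of the genes lie on the X chromosome in families of near copies, and methylation of CG dinucleotides in their promoters is a well known part of how somatic cells keep them silent. The MAGE proteins share 1 domain through which they bind E3 ubiquitin ligases.

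Levels are given in FPKM, a fragment count divided by transcript length and library size, and values of 3 libraries follow the order of replicates 1 to 3 throughout. EFTUD2 itself was measured at 41.14, 54.35 and 46.34 FPKM in control libraries, against 106.62, 102.9 and 109.48 FPKM in EFTUD2 libraries. All 3 EFTUD2 libraries were above all 3 controls, with a ratio of means of 2.25, and this value does not separate the vector's transcript from the cell's own. The 14 listed hepatocyte genes, ALB and AFP among them, were all above the limit for testing, with a summed level of 7450 to 11745 FPKM in control and 10452 to 15530 FPKM in EFTUD2 libraries. EFTUD2 replicate 3 stood apart: across the 17222 genes tested, the SD of its log2 differences was 0.51 to replicate 1 and 0.60 to replicate 2, against 0.23 between replicates 1 and 2 and 0.21 to 0.36 among controls. Fold changes of the antigens, medians of the gene lists and those values of other named genes that it moved by over 1.5 times are given with and without it.

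The promoters of the 2 genes that led the choice are shown first, because the genes differ in family and chromosome while their values ran close together. Both are read on the plus strand from the RefSeq promoter windows (GRCh38.p14) and end at the base before the annotated start. In MAGEB2, chrX:30215313-30215562, the capitals mark the 7 letters GGATGTG, which occur 63 and 17 bases before the start. In PRSS21, chr16:2816987-2817236, the capitals mark CG, the dinucleotide at which DNA is methylated.
MAGEB2: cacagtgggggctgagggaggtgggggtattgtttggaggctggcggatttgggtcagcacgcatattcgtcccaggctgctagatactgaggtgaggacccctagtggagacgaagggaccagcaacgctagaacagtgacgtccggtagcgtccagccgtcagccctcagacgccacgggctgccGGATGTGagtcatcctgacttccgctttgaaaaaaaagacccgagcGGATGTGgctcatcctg
PRSS21: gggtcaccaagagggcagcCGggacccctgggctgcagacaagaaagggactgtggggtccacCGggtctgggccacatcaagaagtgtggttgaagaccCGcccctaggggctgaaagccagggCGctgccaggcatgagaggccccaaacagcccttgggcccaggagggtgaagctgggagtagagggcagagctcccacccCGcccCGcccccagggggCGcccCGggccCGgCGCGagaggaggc

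GGATGTG was searched on both strands because GGAT is the core of sites bound by ETS transcription factors, and it was picked after these sequences had been read. It occurred in 1505 of 35116 RefSeq promoter windows of 300 bases (250 before the start and 50 after), or 4.29%. It occurred in all 11 windows of the 6 MAGE genes of the set that have a window, in none of the 4 windows of PRSS21 and PRAME, and in 12 of 21 other genes of the MAGEA, MAGEB and MAGEC groups. The match describes the letters only. The 35 bases around it are shown for 5 MAGE genes, each on its own strand, with the motif in capitals, since these genes differed widely in level. They lie at chrX:152698700-152698734 (MAGEA3, plus), chrX:152769749-152769783 (MAGEA6, minus), chrX:152733737-152733771 (MAGEA12, plus), chrX:151918237-151918271 (MAGEA4, plus) and chrX:30215492-30215526 (MAGEB2, plus).
MAGEA3: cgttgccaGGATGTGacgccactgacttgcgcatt
MAGEA6: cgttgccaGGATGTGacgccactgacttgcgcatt
MAGEA12: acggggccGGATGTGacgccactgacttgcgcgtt
MAGEA4: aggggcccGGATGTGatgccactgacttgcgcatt
MAGEB2: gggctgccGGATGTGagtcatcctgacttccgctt

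The MAGEA3 and MAGEA6 windows were equal at 300 of 300 bases, and MAGEA4 had the same 7 letters 43 bases before a start and was listed at 0 FPKM in every library. The number of CG dinucleotides per window was 21 in MAGEB2 and 19 in each of PRSS21, MAGEA3 and MAGEA6, against a median of 14 over all windows with quartiles of 4 and 28. MAGEC2 had 10, MAGEA12 had 9 and 15, the 5 windows of MAGEA4 had 10 to 15, and the 3 windows of PRAME had 13, 12 and 4. These counts describe the reference sequence; methylation was not measured.

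**Figure D1:**
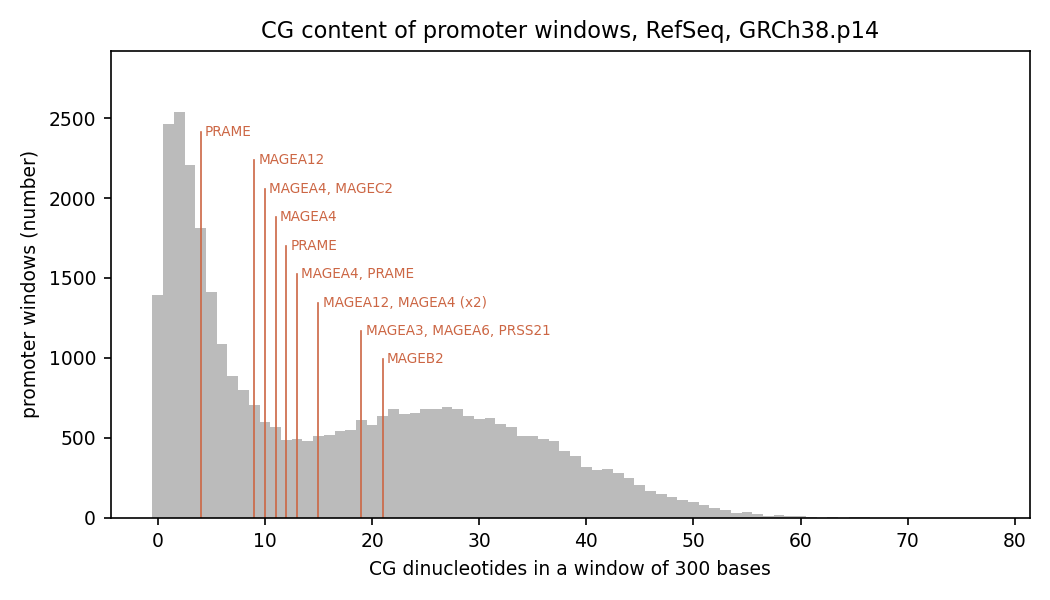
The gray bars give the number of RefSeq promoter windows (y axis) by the number of CG dinucleotides in the 300 bases of each window (x axis), and the lines mark the windows of 8 of the 9 antigens, several of which have more than 1. The lines run from 4 (PRAME) to 21 (MAGEB2), and the 4 genes with 19 or 21 lie above the median of 14 but inside the upper quartile limit of 28.

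MAGEB2 (Entrez 4113, chrX:30215563-30220089) is a type I MAGE gene whose product is normally found in germ cells of the testis. Its level was 0.06, 0.10 and 0.03 FPKM in control libraries, and 4.57, 11.76 and 0.35 FPKM in EFTUD2 libraries. The groups did not overlap, but the EFTUD2 libraries were far apart: replicate 2 was the highest, and replicate 3 was only 3.5 times the highest control. Bulk RNA cannot tell more cells that express a gene from more RNA in each cell. The gene was low in control cells, not listed at 0 in any of them. The mean was 0.0633 ± 0.0351 FPKM in control and 5.56 ± 5.77 FPKM in EFTUD2 cells (SD, n = 3 each), a ratio of means of 87.8. On the scale of log2(FPKM + 1), which understates changes of low genes, the fold change was 2.11 (SE 0.73), and it was 2.99 without EFTUD2 replicate 3 and 1.37 without EFTUD2 replicate 2.

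MAGEA6 and MAGEA3 encode near-identical proteins that bind the ubiquitin ligase TRIM28, through which they are known to target the energy sensor AMPK. MAGEA6 (Entrez 4105, chrX:152766136-152769689) was at 0.23, 0.26 and 0.26 FPKM in control and at 3.55, 7.54 and 0.33 FPKM in EFTUD2 libraries. Replicates 1 and 2 were well above every control, and replicate 3 was 1.27 times the highest control. Means were 0.250 ± 0.0173 and 3.81 ± 3.61 FPKM (SD, n = 3 each). The log2 fold change was 1.58 (SE 0.61), 2.32 without EFTUD2 replicate 3 and 0.98 without EFTUD2 replicate 2.

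MAGEA3 (Entrez 4102, chrX:152698794-152702347) was at 0.09, 0.10 and 0 FPKM in control and at 0.31, 1.13 and 0.04 FPKM in EFTUD2 libraries. Its groups overlapped, since EFTUD2 replicate 3 was below 2 of the 3 controls. Means were 0.0633 ± 0.0551 and 0.493 ± 0.568 FPKM (SD, n = 3 each), and the log2 fold change was 0.43 (SE 0.25), 0.65 without EFTUD2 replicate 3 and 0.14 without replicate 2.

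The split between MAGEA3 and MAGEA6 is uncertain. The genes lie 63.8 kb apart, and in the transcripts of GENCODE release 29 they had 54.5% of all 50-base windows and 36.1% of all 100-base windows in common, so fragments that fall within such windows cannot be given to 1 of them by sequence. Their sum does not depend on that split: it was 0.32, 0.36 and 0.26 FPKM in control and 3.86, 8.67 and 0.37 FPKM in EFTUD2 libraries. MAGEA6 made up 71.9%, 72.2% and 100% of the sum in control and 92.0%, 87.0% and 89.2% in EFTUD2 libraries. The summed values of replicates 1 and 2 were above all controls, and that of replicate 3 was 0.01 FPKM above the highest.

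The other 4 MAGE genes were at or near 0 and were not tested, because their means over the 6 libraries were below 0.1 FPKM. MAGEA12 (Entrez 4111, chrX:152733757-152737669) was at 0.05, 0 and 0.04 FPKM in control and at 0.03, 0.09 and 0.03 FPKM in EFTUD2 libraries. MAGEC2 (Entrez 51438, chrX:142202342-142205290), whose product also binds TRIM28, was listed at 0 apart from 0.01 FPKM in control replicate 2 and 0.02 FPKM in EFTUD2 replicate 2. MAGEA1 (Entrez 4100, chrX:153179284-153183880) was listed at 0 apart from 0.01 FPKM in EFTUD2 replicates 1 and 2, and MAGEA4 (Entrez 4103, chrX:151912474-151925170) was listed at 0 in all 6 libraries. The smallest step in the table is 0.01 FPKM and the read depth is unknown, so a difference at these levels was not detectable. A value of 0 in such a table can also be a failed estimate.

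PRSS21 (Entrez 10942, chr16:2817237-2821719) encodes testisin, a serine protease held at the cell surface and made by spermatocytes. It was at 0.06, 0.05 and 0 FPKM in control and at 4.79, 11.69 and 0.63 FPKM in EFTUD2 libraries. The groups did not overlap: EFTUD2 replicate 3 was 10.5 times the highest control, the largest such ratio among the 5 genes of the set above the filter, and control replicate 3 was the only library listed at 0. Means were 0.0367 ± 0.0321 and 5.70 ± 5.59 FPKM (SD, n = 3 each), a ratio of means of 156. The log2 fold change was 2.25 (SE 0.67), 3.05 without EFTUD2 replicate 3 and 1.57 without EFTUD2 replicate 2.

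PRAME (Entrez 23532, chr22:22547701-22559265) encodes a leucine-rich repeat protein that serves as the substrate receptor of a CUL2 ubiquitin ligase and represses retinoic acid receptor signaling. It was at 0.29, 0.12 and 0.13 FPKM in control and at 0.59, 0.87 and 0.32 FPKM in EFTUD2 libraries. The groups did not overlap, but the lowest EFTUD2 library was only 1.10 times the highest control. Means were 0.180 ± 0.0954 and 0.593 ± 0.275 FPKM (SD, n = 3 each), with a ratio of means of 3.30 and a log2 fold change of 0.42 (SE 0.14), 0.55 without EFTUD2 replicate 3 and 0.30 without EFTUD2 replicate 2.

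**Figure D2:**
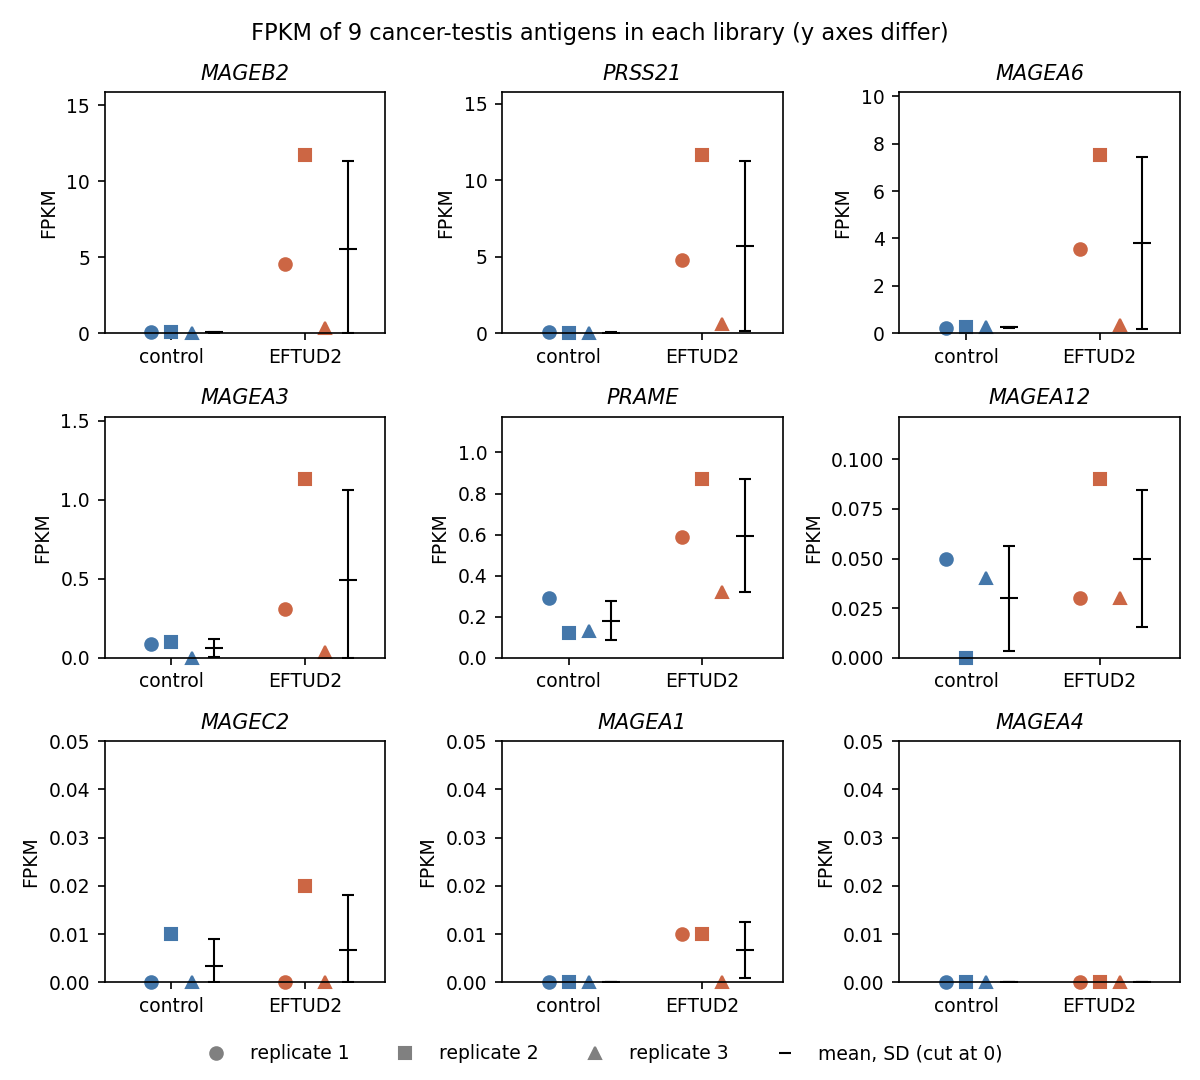
Each panel shows 1 antigen, with its FPKM on a linear y axis of its own (the axes differ between panels) for the 3 control and the 3 EFTUD2 libraries on the x axis; shapes mark replicates 1 to 3 and the bars give the mean and SD, with the lower bar cut at 0. In the 5 panels from MAGEB2 to PRAME, EFTUD2 replicate 2 is the highest point and replicate 3 the lowest of its group, while MAGEC2, MAGEA1 and MAGEA4 stay at or below 0.02 FPKM.

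Ordered by mean level per length in control cells, MAGEA6 came first, followed by PRAME, MAGEA3, MAGEB2, PRSS21, MAGEA12, MAGEC2, MAGEA1 and MAGEA4. The only neighbors whose ranges over the 3 libraries did not overlap were PRAME and MAGEA3. In EFTUD2 cells the order was PRSS21, MAGEB2, MAGEA6, PRAME, MAGEA3, MAGEA12, MAGEA1, MAGEC2 and MAGEA4, and the only neighbors whose ranges did not overlap were MAGEA12 and MAGEA1. Replicate 3 set the low end of the first 5 ranges in EFTUD2 cells, and the order among PRSS21, MAGEB2 and MAGEA6 is not one of separated levels.

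Of the 9 genes, 5 averaged 0.1 FPKM or more and so entered the limma fit across all genes. There, 0 of these 5 had an adjusted p under 0.05, as did 0 of all 17222 genes tested (0%), where the smallest adjusted p was 0.126. At an unadjusted p under 0.05, 4 of the 5 were higher, beside 4.40% of all genes tested that were higher, 7.90% that were lower and 12.3% in either direction. In 4 of the 9 (MAGEB2, PRSS21, MAGEA6 and PRAME) all EFTUD2 libraries were above all controls, as were 1364 genes or 7.92% of those tested. Without EFTUD2 replicate 3, 6 of the 9 were above all controls (MAGEA3 and, at 0.01 FPKM, MAGEA1 in addition), beside 14.7% of the genes tested. The genes were chosen on this comparison, so these counts are no test of them and nothing is read from them.

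The spread among the EFTUD2 libraries had 1 pattern in 4 of the 5 genes. Taken as a ratio to EFTUD2 replicate 2, replicate 1 was at 0.389 in MAGEB2, 0.410 in PRSS21, 0.471 in MAGEA6 and 0.274 in MAGEA3. Replicate 3 was at 0.0298, 0.0539, 0.0438 and 0.0354 of replicate 2 in the same order. PRAME spread less, at 0.678 and 0.368. The EFTUD2 gene did not vary in this way, with ratios of 1.04 and 1.06.

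The ratios were also taken for 9 genes of other kinds that earlier results of these data had shown to be low in controls. The intermediate filament gene VIM was at 0.06, 0.08 and 0.12 FPKM in control and at 23.22, 59.59 and 2.87 FPKM in EFTUD2 libraries, ratios of 0.390 and 0.0482 to replicate 2. The lactate dehydrogenase subunit gene LDHB had ratios of 0.469 and 0.0501, the keratin gene KRT17 0.495 and 0.0688, and the membrane protein gene BASP1 0.405 and 0.0342. The adhesion receptor gene CD44 (0.459 and 0.0800), the collagenase gene MMP1 (0.331 and 0.0739) and the cytokine gene IL6 (0.569 and 0.0505) were in or near the same ranges. KRT7 (0.403 and 0.0127) was lower in replicate 3, and SOCS3 (0.644 and 0.315), an inhibitor of cytokine signaling, spread less, as PRAME did. These genes were chosen with their values known, so these ratios are a description. The part of this pattern in the values of MAGEB2, PRSS21, MAGEA6 and MAGEA3 was not tested.

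**Figure D3:**
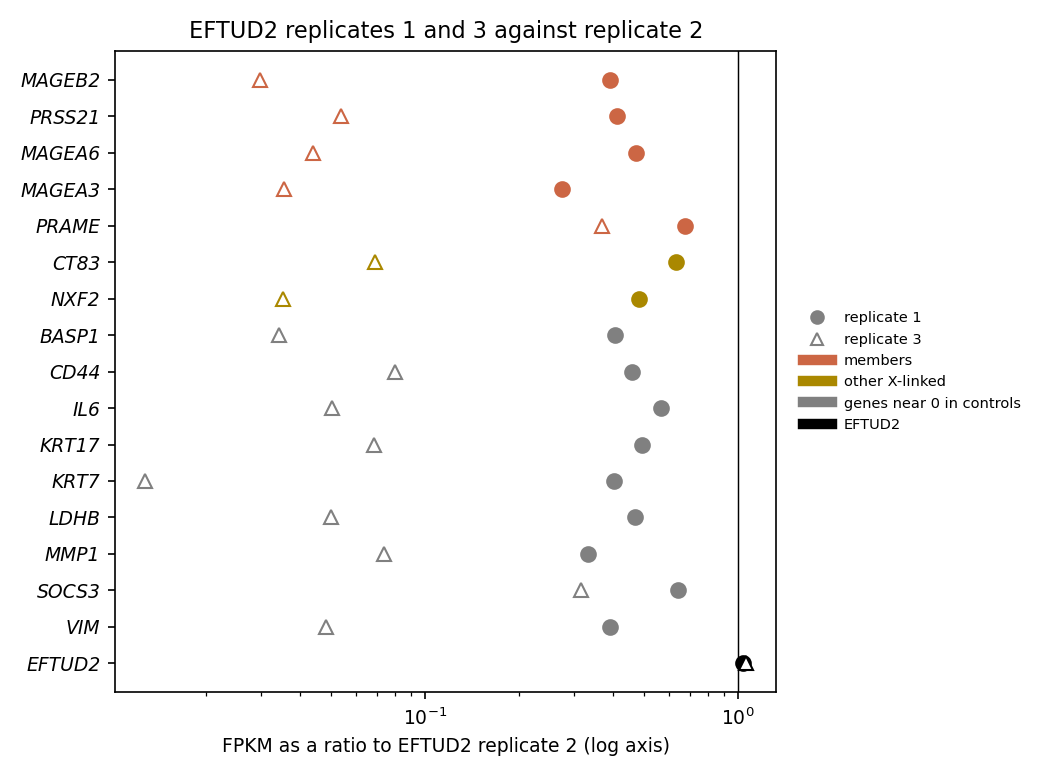
For each gene on the y axis, the filled circle gives EFTUD2 replicate 1 and the open triangle EFTUD2 replicate 3 as a ratio of FPKM to replicate 2, on a log x axis where the line marks 1; the antigens are red, other X-linked cancer-testis genes ochre, genes near 0 in controls gray and EFTUD2 black. Circles of MAGEB2, PRSS21, MAGEA6 and MAGEA3 lie between 0.274 and 0.471 and their triangles between 0.0298 and 0.0539, while EFTUD2 lies at 1.04 and 1.06.

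The genes most like MAGEB2 and PRSS21 were found by writing each library as a percent of a gene's sum over the 6 libraries and dividing the summed absolute differences between genes by 2, over the 14133 genes that averaged 0.5 FPKM or more. EFTUD2 replicate 2 held 69.7% of the sum of MAGEB2, 67.9% of PRSS21, 67.7% of MAGEA3, 62.0% of MAGEA6 and 37.5% of PRAME, and the 3 EFTUD2 libraries together held 98.9%, 99.4%, 88.6%, 93.8% and 76.7%. The gene nearest to MAGEB2 was GNG11, a G protein subunit gene, at 0, 0.08 and 0 FPKM in control and 3.86, 10 and 0.30 FPKM in EFTUD2 libraries, 0.564% of the sum apart. It was followed by PXDN (0.723%), P3H2 (0.919%), NOV (0.955%) and PRR5L (0.980%).

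The gene nearest to PRSS21 was GSTP1, a glutathione transferase gene, at 0, 0.13 and 0.05 FPKM in control and 9.12, 22.28 and 1.08 FPKM in EFTUD2 libraries, 0.700% apart. It was followed by HDHD5 (1.01%), the transcription factor gene TFAP2A (1.05%), the prostaglandin E synthase gene PTGES (1.09%) and LIMCH1 (1.12%). MAGEB2 and PRSS21 were 2.31% apart, and 31 genes were nearer to MAGEB2 and 17 nearer to PRSS21 than they were to each other. Within 5% there were 68 genes for MAGEB2 and 76 for PRSS21, so the profile was common to many genes; it runs over 6 libraries only.

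None of the 3 nearest genes on each side of MAGEB2 or PRSS21 was below 1 FPKM in all controls and above 1 FPKM in any EFTUD2 library. On the X chromosome, MAGEB3, the next gene after MAGEB2, was listed at 0 in control and reached 0.01, 0.05 and 0 FPKM in EFTUD2 libraries. MAGEB1 and DCAF8L1 were listed at 0 in all libraries, MAGEB10 did not pass 0.02 FPKM, IL1RAPL1 did not pass 0.10 FPKM, and the orphan nuclear receptor gene NR0B1 was at 0.33, 0.15 and 0.24 FPKM in control and at 0.08 FPKM in each EFTUD2 library. Around PRSS21, the related protease gene PRSS33 was listed at 0 throughout and PRSS41 at 0 apart from 0.03 FPKM in EFTUD2 replicate 3.

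PRSS22, another protease gene of this stretch, was at 0, 0.12 and 0.06 FPKM in control and at 0.27, 0.27 and 0.21 FPKM in EFTUD2 libraries, without the drop in replicate 3. The elongin B gene ELOB overlapped between groups, at 64.33 to 79.42 FPKM in control and 68.61 to 78.69 FPKM in EFTUD2 libraries. ZG16B (2.86 to 4.29 against 1.97 to 4.68 FPKM) and FLYWCH2 (10.72 to 11.92 against 10.49 to 17.26 FPKM) overlapped too.

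Related genes that were not used to choose the set were tested in the same limma comparison, by lists written from background knowledge. Their counts at an unadjusted p under 0.05 are to be read beside the 4.40% of all genes tested that were higher and the 7.90% that were lower. None of them had an adjusted p under 0.05 in either direction, and the median log2 fold change over all genes tested was -0.07. Of the other type I MAGE genes, which are the closest relatives, 14 of 19 were in the table, and only MAGEA2B passed the filter, at 0.05, 0.10 and 0.08 FPKM in control and 0.17, 0.22 and 0.05 FPKM in EFTUD2 libraries (log2 fold change 0.09, SE 0.08, limma adjusted p = 0.61) and a fold change of 0.15 without EFTUD2 replicate 3. The groups overlapped, and as MAGEA2B is a near copy of MAGEA2 its value is uncertain. MAGEA2B averaged 0.0767 FPKM in control and 0.147 FPKM in EFTUD2 libraries, so it passed the filter of 0.1 FPKM only through its EFTUD2 libraries. Each of the other 13 stayed at or below 0.08 FPKM in every library, and 2 were listed at 0 in all of them.

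Type II MAGE genes are active in most tissues and are not cancer-testis genes. Of 10 listed in the data, 8 were tested, 2 with positive and 6 with negative fold changes, with a median of -0.16, and -0.07 without EFTUD2 replicate 3. At an unadjusted p under 0.05, 0 were higher and 0 lower. After scaling by the median of ratios, a library-wide correction, the 8 were split 4 and 4. MAGED1, a regulator of apoptosis and the most abundant, was at 87.71, 83.94 and 114.34 FPKM in control and 99.75, 88.75 and 84.43 FPKM in EFTUD2 libraries. NSMCE3, a subunit of the SMC5/6 complex that repairs DNA, was at 10.08, 9.42 and 8.74 FPKM in control and 7.07, 7.51 and 2.44 FPKM in EFTUD2 libraries (log2 fold change -0.75, SE 0.34, limma adjusted p = 0.41), a fold change of -0.33 without EFTUD2 replicate 3. MAGED4B (-0.39, with a near copy in MAGED4), MAGEF1 (-0.31) and MAGEE1 (-0.26) had smaller differences, of -0.25, -0.13 and -0.13 without that library.

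In 3 other X-linked cancer-testis genes EFTUD2 replicate 2 was the highest and replicate 3 the lowest of the group, as in MAGEB2. Of 38 found in the data, 6 were tested, all at or below 1 FPKM; 1 was higher and 1 lower at an unadjusted p under 0.05, beside 4.40% and 7.90% of all genes. The list's median log2 fold change was 0.20, and 0.25 without EFTUD2 replicate 3. CT83, NXF2 and XAGE2 averaged 0.0333, 0.00667 and 0 FPKM in control, so they passed the filter only through their EFTUD2 libraries. With no filter on low values, 15 of 29 genes of the list had positive and 14 negative fold changes. Their median was then 0.005, against -0.02 over all genes. CT83, made in placenta and testis, was at 0.05, 0.05 and 0 FPKM in control and 0.55, 0.87 and 0.06 FPKM in EFTUD2 libraries (log2 fold change 0.49, SE 0.20, limma adjusted p = 0.40). The mRNA export factor gene NXF2 was at 0, 0 and 0.02 FPKM in control and 0.41, 0.85 and 0.03 FPKM in EFTUD2 libraries (0.47, SE 0.20). XAGE2 was listed at 0 in control and in EFTUD2 replicate 3 and at 0.40 and 0.52 FPKM in EFTUD2 replicates 1 and 2. NXF2 has a near copy, NXF2B, so its value is uncertain.

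In CT83, NXF2 and XAGE2, EFTUD2 replicate 3 was within 0.01 FPKM of the highest control, and in NXF2 replicates 1 and 3 were at 0.482 and 0.0353 of replicate 2. PAGE1 had lower values in EFTUD2 libraries, at 0.50, 0.75 and 0.81 FPKM in control and 0.47, 0.27 and 0.23 FPKM in EFTUD2 libraries (log2 fold change -0.35, SE 0.12). The limma adjusted p of each of these 4 genes was 0.40, and it ranged over the other settings from 0.018 (PAGE1), 0.0084 (CT83), 0.0099 (NXF2) and 0.0128 (XAGE2) to 0.68. The low ends came from a fit that weighted the libraries, in which the weights did not converge. Without EFTUD2 replicate 3 it was 0.046 in XAGE2 and 0.048 in CT83, where 166 genes or 0.964% of those tested had an adjusted p under 0.05. Of the genes on this list under the filter, 9 were listed at 0 throughout, and the highest value in any library was 0.28 FPKM.

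Among cancer-testis genes on other chromosomes, 20 of 57 in the table were tested, 8 with positive and 12 with negative fold changes, with a median of -0.05, the same without EFTUD2 replicate 3; scaled by the median of ratios, 10 were positive and 10 negative. At an unadjusted p under 0.05, 1 was higher and 2 lower, shares close to the 4.40% and 7.90% of all genes. LIN28B, which blocks maturation of let-7 microRNAs, was at 37.95, 37.18 and 33.96 FPKM in control and 23.29, 20.58 and 20.64 FPKM in EFTUD2 libraries, without overlap and with the 3 EFTUD2 libraries close together (log2 fold change -0.73, SE 0.10, limma adjusted p = 0.21, 0.0077 to 0.65 over the other settings). The low end came from library weights that did not converge, and without EFTUD2 replicate 3 the limma adjusted p was 0.042. The kinesin gene KIF2C was at 17.42, 20.31 and 17.89 FPKM in control and 21.13, 24.01 and 25.01 FPKM in EFTUD2 libraries (0.32, SE 0.12). IMP3 (-0.44, and -0.04 without EFTUD2 replicate 3) and TSSK6 (-0.40) overlapped between groups. The listed IMP3 is Entrez 55272, a gene of ribosome biogenesis and not a cancer-testis gene. It is included in the counts and median of the list.

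Of the PRAME family and serine proteases related to PRSS21, 6 of 20 in the table were tested, all of them proteases. Among these, 5 had positive fold changes, with a median log2 fold change of 0.19, and 0.13 without EFTUD2 replicate 3. At an unadjusted p under 0.05, 1 was higher, beside 4.40% of all genes. That gene was PRSS22 (log2 fold change 0.24, SE 0.08), which averaged 0.06 FPKM in control and 0.25 FPKM in EFTUD2 libraries. PRSS22 thus passed the filter only through its EFTUD2 libraries. The epithelial protease gene PRSS8 was at 12.21, 9.09 and 11.12 FPKM in control and 13.61, 14.01 and 28.28 FPKM in EFTUD2 libraries (0.66, SE 0.28, limma adjusted p = 0.40), a fold change of 0.34 without EFTUD2 replicate 3. Its highest library was EFTUD2 replicate 3, in which PRSS21 was the lowest of its group. PRSS53 (0.35, and 0.10 without that library) and PRSS36 (0.14, and 0.09) overlapped between groups.

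Genes whose products are known to keep germline genes silent (DNA methyltransferases, histone methylation and PRC1.6 factors, and demethylating TET enzymes for comparison) were tested in 31 of 32 cases. At an unadjusted p under 0.05, 0 were higher and 3 lower, a share close to the 7.90% of all genes, and 29 of the 31 fold changes, those of TET1, TET2 and TET3 included, were negative, with a median of -0.23. Scaled by the median of ratios, 25 of 31 were negative with a median of -0.12, against 0.01 over all genes. Without EFTUD2 replicate 3, 22 of 31 were negative with a median of -0.06, against -0.04 over all genes. That library is the one in which MAGEB2, PRSS21, MAGEA6 and MAGEA3 were the lowest of their group, and the part of these genes in the values of the antigens was not tested.

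The maintenance methyltransferase gene DNMT1 was at 25.69, 29.51 and 26.75 FPKM in control and 26.21, 28.68 and 16.15 FPKM in EFTUD2 libraries (log2 fold change -0.24, and 0.01 without EFTUD2 replicate 3). The demethylase gene TET3 was at 6.93, 5.81 and 5.36 FPKM in control and 4.45, 4.42 and 3.18 FPKM in EFTUD2 libraries (log2 fold change -0.49, SE 0.16, limma adjusted p = 0.40). L3MBTL2 (-0.62) of the PRC1.6 complex, UHRF1 (-0.49) and EED (-0.48) had their lowest values, 3.78, 10.61 and 2.78 FPKM, in EFTUD2 replicate 3, and fold changes of -0.12, -0.10 and -0.15 without it. E2F6 (-0.44) and SIRT1 (-0.40) moved less, to -0.34 and -0.28 without that library. Of the 31 genes tested on this list, 7 were below all controls in all EFTUD2 libraries, E2F6 and SIRT1 among them, beside 3337 of all 17222 genes tested.

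Of 20 genes listed from background knowledge as partners of these antigens or of other MAGE proteins, 17 averaged 1 FPKM or more. The other 3, TRIM31, LNX1 and SPINT2, averaged less. All 20 were tested; at an unadjusted p under 0.05, 0 were higher and 2 lower, beside 4.40% and 7.90% of all genes. Their median log2 fold change was -0.10 as deposited, with 4 positive and 16 negative, -0.02 without EFTUD2 replicate 3, and 0.01 when scaled by the median of ratios, where 10 fold changes were positive and 10 negative. TRIM28, the ligase bound by MAGEA3, MAGEA6 and MAGEC2, was at 102.86, 111.29 and 110.38 FPKM in control and 102.34, 113.35 and 68.56 FPKM in EFTUD2 libraries, with overlap (log2 fold change -0.22, and -0.01 without EFTUD2 replicate 3). F2RL1, a receptor that testisin can activate by cleavage, was at 33.98, 52.55 and 42.23 FPKM in control and 23.71, 22.32 and 12.73 FPKM in EFTUD2 libraries, without overlap (log2 fold change -1.12, SE 0.26, limma adjusted p = 0.39, 0.016 to 0.68 over the other settings). The low end came from library weights that did not converge, and without EFTUD2 replicate 3 the limma adjusted p was 0.099. RBX1 (-0.39, and -0.25 without EFTUD2 replicate 3), CCNE1 (-0.27, and -0.14) and MDM2 (-0.26) had smaller differences.

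**Figure D4:**
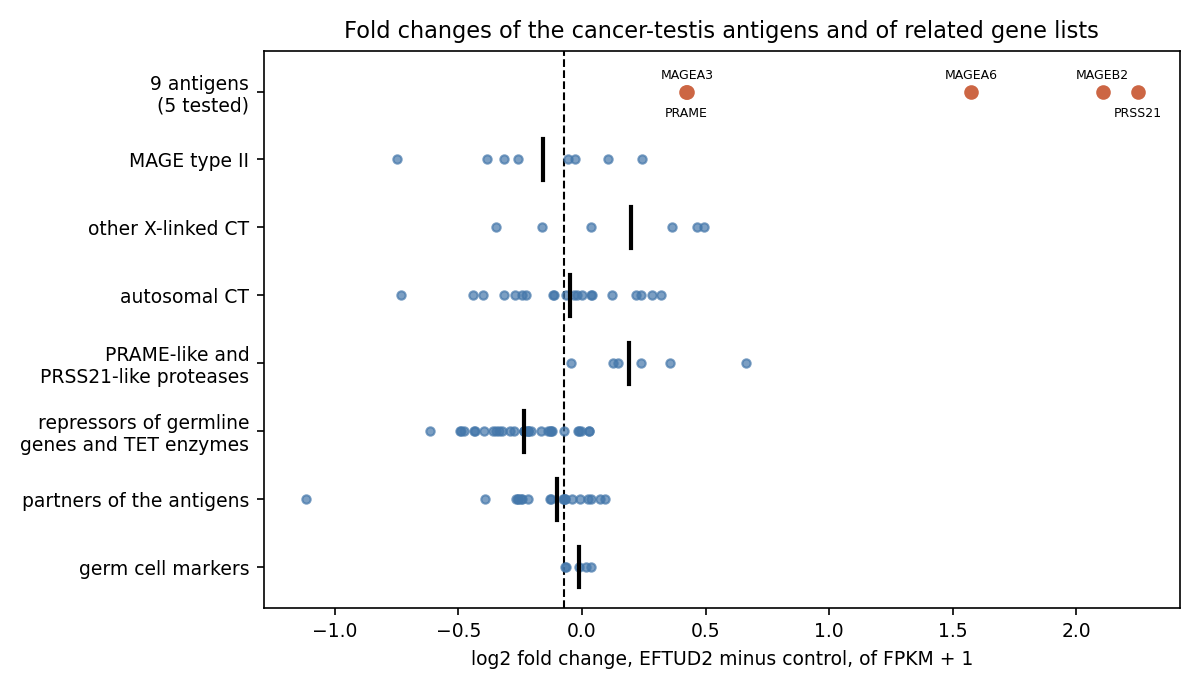
Each point is 1 tested gene, with the log2 fold change of FPKM + 1 (EFTUD2 minus control) on the x axis and the gene list on the y axis; short black bars mark list medians and the dashed line marks the median of all genes tested, -0.07. The 5 antigens above the filter lie between 0.42 and 2.25, the other X-linked cancer-testis (CT) genes reach 0.49, and 29 of the 31 genes on the list of germline gene repressors and TET enzymes lie below 0 (22 without EFTUD2 replicate 3).

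Markers of other cell types were measured beside the antigens. Of 15 germ cell markers in the table, DAZL and SYCP1 were listed at 0 in all libraries, DDX4 did not pass 0.02 FPKM, and the summed level was 3.14 to 5.75 FPKM in control and 3.57 to 4.81 FPKM in EFTUD2 libraries, with POU5F1 (1.55 to 3.91 and 2.10 to 2.42 FPKM) the highest, followed by SYCP3 (0.49 to 0.81 and 0.48 to 0.70 FPKM). Fibroblast markers summed to 0.53 to 1.65 FPKM in control and 2.38 to 5.28 FPKM in EFTUD2 libraries, with COL1A2 at 0 throughout. Above all controls in all EFTUD2 libraries were 2 of 11 (COL3A1 and TWIST1), beside 7.92% of the genes tested. Only 4 of the 11 passed the filter for testing, and TWIST1 was not among them. The collagen genes COL1A1 (0.15, 0.09 and 0.10 FPKM in control, 0.78, 2.05 and 0.11 FPKM in EFTUD2 libraries) and COL3A1 (listed at 0 in control, 0.62, 1.49 and 0.14 FPKM in EFTUD2 libraries) had the order of MAGEB2 over the EFTUD2 libraries. So did LUM (0, 0.01 and 0 FPKM in control, 0.35, 0.56 and 0.01 FPKM in EFTUD2 libraries) and TWIST1 (listed at 0 in control, 0.16, 0.37 and 0.03 FPKM in EFTUD2 libraries). The receptor gene PDGFRB, at 1.43, 0.41 and 1.05 FPKM in control and 1.10, 0.68 and 2.07 FPKM in EFTUD2 libraries, was instead the highest in replicate 3.

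Macrophage markers summed to 776 to 2281 FPKM in control and 885 to 1750 FPKM in EFTUD2 libraries, nearly all of it LYZ, with TYROBP at 0 throughout. Of these 9 markers, 1 was above all controls in all EFTUD2 libraries, beside 7.92% of the genes tested. It was CD14, at 0.60 to 1.03 against 1.41 to 2.51 FPKM. Below all controls were 0 of the 9, beside 3337 of the 17222 genes tested. Only 5 of the 9 passed the filter for testing, CD14 among them. Endothelial markers summed to 15.97 to 17.36 and 5.07 to 9.95 FPKM, most of it ESAM. Of these 8 markers, 5 passed the filter for testing. ESAM and PECAM1 were below all controls in all EFTUD2 libraries, as were 3337 of the 17222 genes tested. CDH5 (0.06 to 0.08 against 0.19 to 0.28 FPKM) and VWF (0.15 to 0.33 against 0.46 to 0.60 FPKM) were above all controls, as were 7.92% of the genes tested. The part of these other cell type markers in the values of the antigens was not tested.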

How the data were processed

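RNA-Seq was analyzed for 6 libraries of Hep G2 cells, grouped and numbered by their labels. The authors extracted RNA with TRIzol, selected poly-A RNA and ran the libraries on a BGISEQ-500. Per gene and library they deposited FPKM with 2 decimals. The submitters' processing notes list HISAT2, Bowtie2, RSEM, DESeq2 and hg38 with no role or version. Read counts were not used here, so depth and read length are unknown and no counting interval is given. Every column of the table belongs to 1 of the 6 libraries.

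From the deposited FPKM, log2(FPKM + 1) was computed for the 17222 genes that averaged 0.1 FPKM or more, and groups were compared with limma 3.58.1 (lmFit, eBayes with trend, R 4.3.3) and Benjamini-Hochberg adjustment over all genes tested. An exact permutation test of 3 against 3 libraries cannot go below p = 0.1 and was not used. Alternatives were pseudocounts of 0.1 and 0.01, a filter at 1 FPKM or none, 3 scalings (median of ratios, quantile, common sum), robust empirical Bayes, array weights, a replicate block and leaving out each library; the count of antigens above all controls without EFTUD2 replicate 3 was added after the data were seen.

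The 9 genes and all lists were chosen with earlier results of these data known. Named are the 9 genes, EFTUD2, the 4 largest changes of each list, the 5 genes nearest in profile to MAGEB2 and PRSS21, 3 neighbors on each side and marker genes. MAGED1, DNMT1, E2F6, SIRT1, TRIM28, TRIM31, LNX1, SPINT2, TET1, TET2 and 9 genes low in controls were added after their values were seen. Of 333 list entries, 266 matched the table. Promoters and positions are from RefSeq (GRCh38.p14), in which 8 of the 9 genes had 15 windows, and transcripts from GENCODE release 29. Proteins were not compared. Python 3.11.15, pandas 2.3.3 and matplotlib 3.10.9 were used.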

Additional observations from a re-analysis of the deposited data

How the results depend on the processing

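The 5 antigens above the filter had positive log2 fold changes under the 12 alternatives set for these values, over ranges of 1.37 to 5.31 (MAGEB2), 1.57 to 6.57 (PRSS21), 0.98 to 3.01 (MAGEA6), 0.14 to 2.46 (MAGEA3) and 0.30 to 1.67 (PRAME). The upper ends came from a pseudocount of 0.01. With 0.1 the values were 4.18, 4.70, 2.71, 1.41 and 1.28. MAGEB2, PRSS21 and MAGEA3 averaged under 0.1 FPKM in control, so they passed the filter only through their EFTUD2 libraries. The genes were also chosen on this comparison, so a sign kept under all alternatives is no test of them. No gene had an adjusted p under 0.05 with limma in the main comparison, and 2118 had an unadjusted p under 0.05. Array weights called 1246 of the 17222 genes tested (916 higher, 330 lower). Among them were 5 of the antigens, 4 other X-linked cancer-testis genes (XAGE2, PAGE1, CT83 and NXF2), 3 autosomal ones (TTK, KIF2C and LIN28B) and 1 partner (F2RL1). However, the weights, 0.0348 for EFTUD2 replicate 1 to 27.7 for control replicate 3, did not converge. Leaving out 1 library gave 0 to 166 genes (152 higher and 14 lower, only without EFTUD2 replicate 3, 0.964% of those tested). These held 0 to 3 of the antigens, 0 to 2 other X-linked genes (XAGE2 and CT83) and 0 to 1 autosomal gene (LIN28B). Because the antigens were chosen on this comparison, these counts of antigens are no test of them. Under the other alternatives 0 genes were called. Scaled by the median of ratios, 1138 genes were higher and 835 lower at an unadjusted p under 0.05, against 757 and 1361 as deposited, and the median of all genes was 0.01 against -0.07. Of the genes above 0, 22159 were tested without a filter and 12556 at an average of 1 FPKM or more.

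With the replicate number as a block, 0 genes were called, and 774 were higher and 1253 lower at an unadjusted p under 0.05. Same-numbered libraries did not deviate together, with correlations of -0.30, 0.35 and -0.09 for numbers 1 to 3, and the labels do not say what a number marks. With FPKM alone, values near 0.01 FPKM cannot be told from 0.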
